A study of Mus musculus with 8 samples.

Results

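The enzymes that turn ammonia into urea, and 3 of early steps in the breakdown of tyrosine and tryptophan, were followed through the H3K27ac response of mouse primary hepatocytes (MPH) to endoplasmic reticulum stress (ERS). The 9 genes are Nags, Cps1, Otc, Ass1, Asl and Arg1 of the urea cycle and Tat, Hpd and Tdo2 of amino acid catabolism. They were chosen by name and pathway, and make 9 of the 55341 gene symbols in GENCODE release M21 and 9 of the 12261 symbols with a transcription start site (TSS) in an H3K27ac region. MPH from adult male WT mice of the C57Bl6 background, kept in serum-free medium, received 1 µM thapsigargin, which blocks the calcium pump of the endoplasmic reticulum, or 0.04% DMSO as vehicle for 4 h. Each treatment has 3 H3K27ac ChIP-seq libraries and 1 input library, and the processed files used here are 3 region lists on mm10 made from all of them together.

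H3K27ac UP regions gained and H3K27ac DOWN regions lost signal under thapsigargin in the authors' csaw test. Both passed an FDR of 0.05, and the ratio of bins that rose to bins that fell was 2 or more for UP and 0.5 or less for DOWN. A region is unchanged where its FDR is above 0.05, so the name states that no change was called, not that there was none. Regions past the FDR with a ratio between these limits are in none of the 3 lists. The lists hold positions alone, with no signal, fold change, p-value or value per library. Widths below therefore have no error between experiments, the depth is unknown, and no difference between the 9 genes and other genes was tested. ChIP signal is summed over all cells of a dish, so that a change in each cell and a change in the share of cells cannot be told apart. Of 7 hepatocyte markers, 6 had a TSS in a region (Cyp2e1 did not), against 2 of 22 markers of other liver cells, Stab2 of endothelial cells and Sox9 of cholangiocytes.

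The urea cycle runs in hepatocytes, partly in mitochondria and partly in the cytosol, and is the main way in which mammals dispose of the nitrogen of amino acids. Its enzymes are abundant in liver and scarce in most other tissues, and their genes are regulated by diet and by hormones such as glucagon and glucocorticoids. TAT, HPD and TDO2 catalyze early steps in the breakdown of aromatic amino acids and are likewise typical of differentiated hepatocytes. Acetylation of histone H3 at lysine 27 marks active promoters and enhancers.

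At their own TSSs, 8 of the 9 genes lay in unchanged H3K27ac regions, 1 gene (Tdo2) lay in an UP region and 0 lay in a DOWN region. Not every annotated transcript started in a region. For Ass1 1 of 4, for Tdo2 2 of 4, for Arg1 2 of 3, for Hpd 4 of 6 and for Asl 6 of 8 did so, and for Cps1, Otc, Nags and Tat all did. DOWN regions held a TSS of 8.91% of all 12261 gene symbols with any TSS region, and UP regions one of 21.4%. Among the 8256 symbols whose widest TSS region reached the 1350 bp of Otc, the narrowest of the 9, these shares were 12.3% and 25.1%. Read against these shares, counts of 0 and 1 do not set the 9 genes apart from other genes. The changed regions of the urea cycle genes lay away from their TSSs, in the gene body of Cps1 or outside the genes, as the map of the 9 loci shows.

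**Figure D1:**
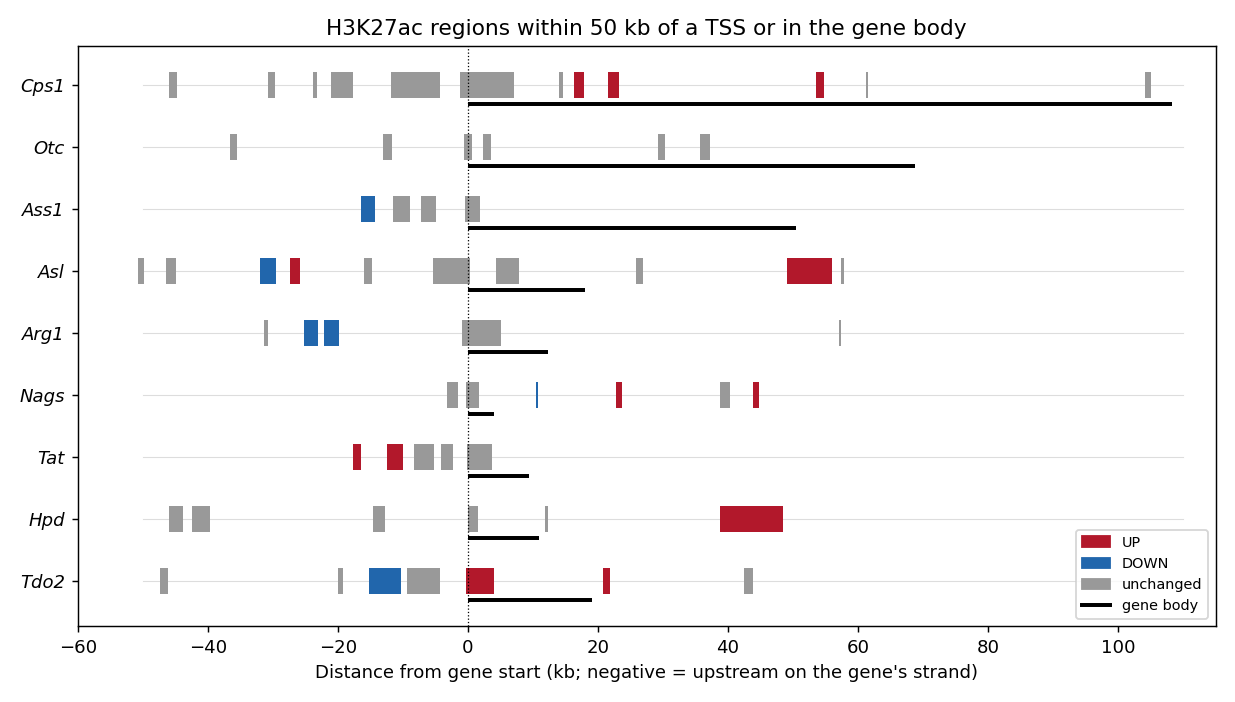
H3K27ac regions of the 9 genes, drawn to scale along the distance from the gene start in kb (negative values lie upstream on the gene's own strand), with UP regions in red, DOWN regions in blue, unchanged regions in grey and the gene body as a black line. All regions within 50 kb of any TSS of a gene or in its body are shown. The region over the gene start is grey for 8 genes and red for Tdo2, and the 6 DOWN regions lie between 10273 and 29549 bp from the gene start.

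NAGS makes N-acetylglutamate, the activator without which CPS1 does not work. Its gene (ENSMUSG00000048217.11, chr11:102145513-102149477, plus strand) started in an unchanged region of 1961 bp that reached from 275 bp upstream to 1685 bp downstream of the gene start and also held the TSS of Gm11586. A second unchanged region, of 1694 bp, ended 1553 bp upstream. The changed regions all lay downstream, beyond the end of Nags. A DOWN region 10565 bp downstream of the gene start, chr11:102156078-102156329, was the narrowest changed region of the 9 loci, with 252 bp. It overlaps the first exon of Tmem101, including coding sequence, and no TSS lies in it. An UP region of 847 bp lay 22839 bp downstream in an intron of Lsm12, and an UP region of 898 bp, 43888 bp downstream, held the TSS of G6pc3. DOWN regions covered 3.57% and UP regions 24.7% of the 7064 bp of regions within 50 kb. The DOWN region is given whole because it is the only changed region near the 9 genes short enough to print, with the central 300 bases of the Lsm12 UP region, chr11:102168626-102168925, chosen after its motif matches were seen. Both are on the plus strand of mm10, and the capitals in the second mark TTAAGCAA, a match to the C/EBP motif, and TGATGCAAT, a match to the ATF4/CHOP element; the first holds no match to the 10 motifs searched.
Nags DOWN region: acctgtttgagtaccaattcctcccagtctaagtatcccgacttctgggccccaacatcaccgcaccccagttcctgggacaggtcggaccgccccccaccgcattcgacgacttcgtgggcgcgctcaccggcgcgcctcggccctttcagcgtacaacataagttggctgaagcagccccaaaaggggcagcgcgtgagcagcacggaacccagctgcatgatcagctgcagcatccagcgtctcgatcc
Lsm12 UP region centre: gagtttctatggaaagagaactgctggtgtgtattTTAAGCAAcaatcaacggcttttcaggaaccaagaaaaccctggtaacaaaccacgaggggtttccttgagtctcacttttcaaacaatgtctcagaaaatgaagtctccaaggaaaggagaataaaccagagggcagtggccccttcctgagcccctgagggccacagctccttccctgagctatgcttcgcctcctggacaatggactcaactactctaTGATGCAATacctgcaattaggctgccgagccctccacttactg

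CPS1 makes carbamoyl phosphate from ammonia and bicarbonate and sets the pace of the cycle. Cps1 (ENSMUSG00000025991.8, chr1:67123026-67231259, plus strand) had the widest TSS region of the 9, an unchanged region of 8305 bp at chr1:67121863-67130167 that reached 1163 bp upstream and 7141 bp into the gene. Of all symbols with a TSS region, 96% had none wider than this. A further 5 unchanged regions lay upstream within 50 kb, the nearest of them 7536 bp wide. Cps1 was the only one of the 9 with UP regions in its body beyond the TSS region. These were 3 UP regions of 1574, 1652 and 1123 bp, at 16345, 21632 and 53627 bp downstream of the gene start, and each overlapped an exon of Cps1. Unchanged regions of 741, 448 and 974 bp lay before and after them in the same gene body. No DOWN region lay within 50 kb of the TSS or in the gene body. UP regions covered 12.4% of the 26038 bp of regions within 50 kb, and the UP region at 53627 bp falls outside that window. The central 300 bases of that most distant UP region, chr1:67177065-67177364 on the plus strand, were chosen for printing after their matches were seen. The first capitals mark a TATA box and the second ATTTCATCA, the ATF4/CHOP element read on the other strand.
Cps1 UP region centre: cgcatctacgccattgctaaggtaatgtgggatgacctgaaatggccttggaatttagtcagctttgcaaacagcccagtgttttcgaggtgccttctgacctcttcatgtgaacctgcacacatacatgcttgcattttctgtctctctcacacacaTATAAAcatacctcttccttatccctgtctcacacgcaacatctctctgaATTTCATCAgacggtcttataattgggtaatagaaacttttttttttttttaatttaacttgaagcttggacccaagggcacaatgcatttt

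OTC joins carbamoyl phosphate to ornithine to give citrulline. Otc (ENSMUSG00000031173.13, chrX:10252305-10321024, plus strand) was the only gene of the 9 with no changed region within 50 kb. All 6 of its regions were unchanged and measured between 1112 and 1486 bp, near the medians of 1155 bp for unchanged and 1311 bp for all regions. The region over the gene start, chrX:10251677-10253026, measured 1350 bp, and 32.7% of all symbols with a TSS region had one of this width or less. There were 3 more unchanged regions in the gene body, of 1149, 1115 and 1486 bp, all intronic. The furthest upstream region, of 1112 bp, held the TSS of Rpgr.

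ASS1 couples citrulline to aspartate, which brings in the nitrogen of amino groups. Ass1 (ENSMUSG00000076441.9, chr2:31470207-31520672, plus strand) started in an unchanged region of 2386 bp, chr2:31469771-31472156, and no other region lay in its body. Upstream, 2 unchanged regions of 2187 and 2596 bp lay 4940 and 8841 bp from the gene start. Beyond them, 14302 bp upstream, a DOWN region of 2061 bp covered 22.3% of the 9230 bp of regions within 50 kb. This DOWN region, chr2:31453845-31455905, lies in Hmcn2, a gene for an extracellular matrix protein, and holds a TSS of it. No UP region lay within 50 kb.

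ASL splits argininosuccinate into arginine and fumarate. Asl (ENSMUSG00000025533.15, chr5:130011258-130029247, minus strand) had TSSs in 2 unchanged regions. The first, of 5612 bp, spans the gene start and holds the TSS of its divergent neighbour Crcp, and the second, of 3477 bp, lies 4364 bp downstream and holds TSSs of shorter transcripts. Among the 10 regions within 50 kb, the most of any of the 9 genes, 2 were UP and 1 was DOWN. The DOWN region of 2372 bp lay 29549 bp upstream, at the end of Crcp, and an UP region of 1530 bp lay 25878 bp upstream in an intron of Crcp. These neighbours of opposite class were separated by 2141 bp. The other UP region, of 6879 bp, held the TSS of Vkorc1l1, 49149 bp downstream of the Asl gene start. It made up most of the UP share of 33.5% of the 25084 bp near Asl, beside a DOWN share of 9.46%.

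ARG1 releases urea from arginine and returns ornithine to the cycle. Arg1 (ENSMUSG00000019987.9, chr10:24915221-24927484, minus strand) started in an unchanged region of 5917 bp, chr10:24922444-24928360, which also held the TSS of Gm36172 and was the only region in its body. Its upstream side carried 2 DOWN regions, of 2197 and 2226 bp, that were 928 bp apart. They lay 19881 and 23006 bp upstream of the gene start, at chr10:24947365-24949561 and chr10:24950490-24952715, and overlap no exon and no protein-coding gene. DOWN regions thereby covered 39.3% of the 11257 bp of regions within 50 kb, the highest DOWN share of the 9 genes, and no UP region lay in this window. Arg1 was also the only gene with more than 1 DOWN region within 50 kb.

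TAT moves the amino group of tyrosine to a keto acid, the first step of tyrosine breakdown in liver, and is a classical target of glucocorticoids. Tat (ENSMUSG00000001670.13, chr8:109990437-109999803, plus strand) started in an unchanged region of 3927 bp, chr8:109990291-109994217, that began only 146 bp upstream of the gene start. Unchanged regions of 1923 and 2976 bp lay 2212 and 5249 bp upstream. Further out, 2 UP regions of 2463 and 1164 bp lay 9923 and 16444 bp upstream, outside any protein-coding gene and 4058 bp apart. UP regions covered 29.1% of the 12453 bp of regions within 50 kb, and no DOWN region lay there. Tat and Arg1 thus each had 2 changed regions upstream of an unchanged TSS region, both UP at Tat and both DOWN at Arg1. The 250 bases before the RefSeq start of Tat, chr8:109990186-109990435 on the plus strand of GRCm38, are shown as the promoter of a gene whose TSS region is in the unchanged list; they hold no match to the 10 motifs.
Tat promoter: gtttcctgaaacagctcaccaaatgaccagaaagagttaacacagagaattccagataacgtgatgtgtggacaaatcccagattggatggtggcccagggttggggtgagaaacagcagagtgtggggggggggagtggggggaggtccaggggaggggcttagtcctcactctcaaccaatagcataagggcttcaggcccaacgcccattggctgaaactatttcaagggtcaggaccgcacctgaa

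HPD carries out the next step of tyrosine breakdown and makes homogentisate. Hpd (ENSMUSG00000029445.13, chr5:123171807-123182727, minus strand) started in an unchanged region of 1556 bp, chr5:123181176-123182731, which ended 4 bp upstream of the gene start. The region at this gene start thus lay almost wholly on the transcribed side. Another 4 unchanged regions, of 471 to 2692 bp, lay within 50 kb. The single changed region was an UP region of 9681 bp, 38813 bp downstream of the gene start, that held TSSs of Setd1b, a histone methyltransferase gene, and of 3 other genes (4932422M17Rik, AI480526 and Gm38102). It covered 52.7% of the 18376 bp near Hpd, the highest UP share of the 9 genes, and was the widest changed region among them.

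TDO2 opens the indole ring of tryptophan and begins the kynurenine pathway. Tdo2 (ENSMUSG00000028011.16, chr3:81957090-81976202, minus strand) was the only gene of the 9 whose TSS lay in a changed region. This UP region of 4329 bp, chr3:81972181-81976509, reached 307 bp upstream and 4021 bp into the gene and overlaps its first exons. Upstream of it came an unchanged region of 5002 bp with the TSS of Asic5, 4337 bp from the Tdo2 gene start. A DOWN region of 4863 bp, chr3:81986475-81991337, followed after a gap of 934 bp, within Asic5 and 10273 bp upstream of Tdo2. It was the widest DOWN region near the 9 genes and the one closest to a gene start. A second UP region, of 1079 bp, lay 20840 bp downstream of the gene start at the end of Ctso. UP regions covered 29.1% and DOWN regions 26.2% of the 18557 bp of regions within 50 kb. Tdo2 thus carried an UP region at its TSS and a DOWN region of similar width upstream of it.

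The sequences at Tdo2 are shown because this locus holds the only changed TSS region. The first is the 250 bases before the M21 gene start, chr3:81976203-81976452 on the minus strand, all of them in the UP region; the second is the central 300 bases of the upstream DOWN region, chr3:81988757-81989056 on the plus strand, chosen after its matches were seen. The start that RefSeq gives lies 474 bp inside the M21 transcript, and its promoter window is not printed. No match to the 10 motifs was found before the M21 start. In the DOWN region, capitals mark TTTATA (the TATA box on the other strand), TGGACTTTG (the HNF4 motif on the other strand) and GTAAACA (the FOXA motif on the other strand).
Tdo2 upstream: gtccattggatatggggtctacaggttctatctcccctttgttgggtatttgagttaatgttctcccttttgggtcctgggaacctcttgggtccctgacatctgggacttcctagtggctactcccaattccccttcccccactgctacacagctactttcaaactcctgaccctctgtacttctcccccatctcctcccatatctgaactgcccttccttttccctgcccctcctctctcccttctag
Tdo2 DOWN region centre: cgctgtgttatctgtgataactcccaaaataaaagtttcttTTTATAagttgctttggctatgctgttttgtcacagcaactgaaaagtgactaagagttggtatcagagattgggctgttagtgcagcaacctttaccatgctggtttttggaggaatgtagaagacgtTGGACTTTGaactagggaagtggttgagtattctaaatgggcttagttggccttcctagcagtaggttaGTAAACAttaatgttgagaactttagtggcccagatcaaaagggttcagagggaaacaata

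Within 50 kb of their TSSs the 9 genes had 58 regions covering 135608 bp, none of them shared between genes. Of these, 6 were DOWN (10.3%), 11 were UP (19%) and 41 were unchanged (70.7%), next to 10.5% DOWN and 17.1% UP among all 32196 regions. By base pairs, the DOWN share was 10.3% and the UP share 23.7%, against 18% and 21.2% of the base pairs in all regions. The regions of the 9 loci thus fell into the 3 classes in nearly the proportions of the whole list when counted, and with a lower DOWN share when weighted by width. The 6 urea cycle genes had 5 DOWN, 6 UP and 29 unchanged regions, and Tat, Hpd and Tdo2 had 1 DOWN, 5 UP and 12 unchanged regions. By number, few of the changed regions lay at TSSs of neighbours, 1 of the 6 DOWN (Hmcn2) and 3 of the 11 UP regions (Vkorc1l1, G6pc3 and Setd1b). Those at Setd1b (9681 bp) and Vkorc1l1 (6879 bp) were, however, the widest UP regions near the 9 genes. With all regions at TSSs of other genes left out, the UP share of base pairs was 16.4% and the DOWN share 13.4%. The shares over all regions were not recounted in that way.

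By gene, 5 of the 9 had at least 1 DOWN region and 6 had at least 1 UP region within 50 kb. The corresponding shares of the 9805 protein-coding genes with a TSS in a region were 31.3% and 53.6%. The 9 genes divided into 3 with both classes (Nags, Asl and Tdo2), 3 with UP only (Cps1, Tat and Hpd), 2 with DOWN only (Ass1 and Arg1) and 1 with neither (Otc). Among the protein-coding genes, 16.3% had both and 31.5% had neither. The 9 loci also held more regions to be called, with a median of 6 regions within 50 kb and a range from 4 to 10, against a median of 4 for the protein-coding genes. The part of this density in the number of genes with a changed region was not tested. In the gene bodies, 19 regions were found, of which 0 were DOWN, 4 were UP (3 in Cps1 and the TSS region of Tdo2, 8678 bp together) and 15 were unchanged (40404 bp). These 19 regions include the 10 TSS regions of the 9 genes, described above. Shares over all gene bodies were not counted, so these counts stand only beside 10.5% DOWN and 17.1% UP among all regions.

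**Figure D2:**
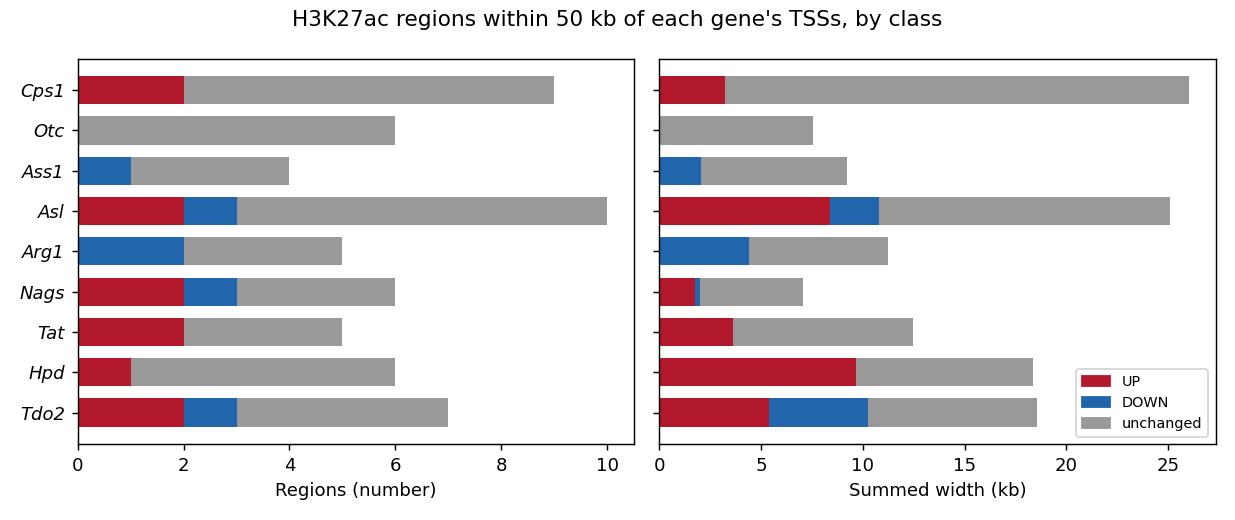
Number of H3K27ac regions (left) and their summed width in kb (right) within 50 kb of the TSSs of each gene, stacked by class with UP in red, DOWN in blue and unchanged in grey. Otc is grey throughout, Ass1 and Arg1 have blue without red, Cps1, Tat and Hpd have red without blue, and red covers 52.7% of the width at Hpd.

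By side of the gene start, the classes were placed as follows. Of the 6 DOWN regions, 5 lay upstream and 1 downstream, and 0 spanned a gene start. Of the 12 UP regions, 3 lay upstream, 8 downstream and 1 over a gene start. They include the one in the Cps1 body beyond 50 kb, which as part of the body can only lie downstream. Sides were not counted for unchanged regions or for other genes, so these counts have no background, and the difference between the classes was not tested. The DOWN regions had a median width of 2211.5 bp and the UP regions of 1552 bp, close to the medians of 2229 and 1621.5 bp over all DOWN and UP regions.

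TSS regions of the 9 genes tended to be wide. The widest one per gene had a median of 3927 bp, against 1850 bp over all symbols with one. Cps1 (8305 bp), Arg1 (5917 bp), Asl (5612 bp), Tdo2 (4329 bp) and Tat (3927 bp) stood at or above the width of 82.4% of all symbols. Ass1 (2386 bp), Nags (1961 bp) and Hpd (1556 bp) ranked at 62.8%, 53.1% and 40.3%, and Otc at 32.7%. Width alone did not separate the UP region of Tdo2 from the unchanged ones, since 3 unchanged TSS regions were wider than it and the others narrower. Over all symbols, those with a TSS in a DOWN region had a median width of their widest TSS region of 4161 bp, and those at an UP region of 2298 bp.

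**Figure D3:**
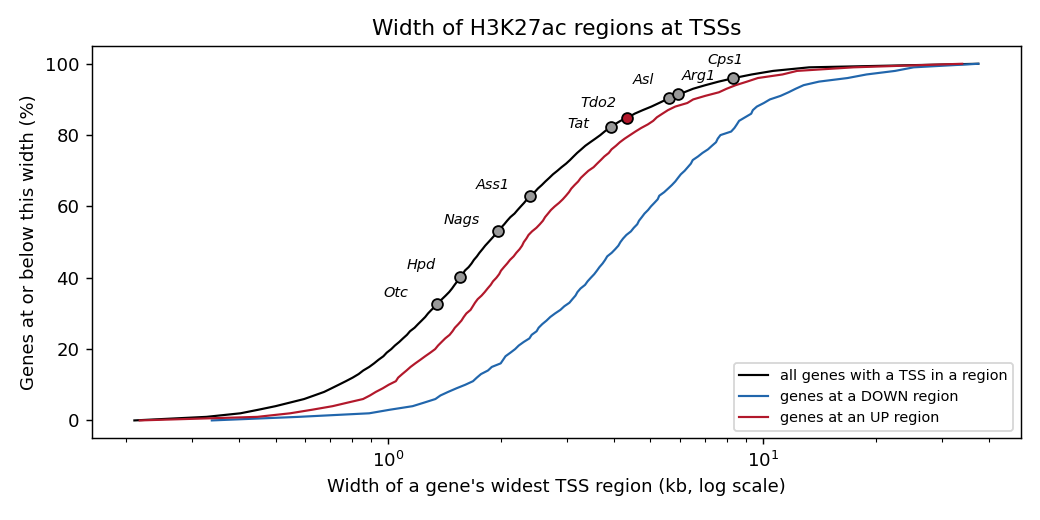
Cumulative share of genes (vertical axis, in percent) by the width of the widest H3K27ac region at a TSS (horizontal axis, kb on a log scale), for all genes with such a region (black), genes at a DOWN region (blue) and genes at an UP region (red). Points are the 9 genes on the curve of all genes, grey for unchanged and red for UP, from Otc at 1350 bp to Cps1 at 8305 bp.

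Genes that surround the 9 in nitrogen and amino acid metabolism were taken from 6 lists of 66 genes in all, of which 60 had a TSS in a region. DOWN regions held TSSs of 16 of these 60 (26.7%) and UP regions TSSs of 14 (23.3%), with Gpt2 counting for each, and 31 of the 66 had only unchanged TSS regions. With GENCODE basic transcripts only, the DOWN and UP counts were 13 and 11. They were also 13 and 11 where 500 bp on each side of the TSS had to lie in the region. With TSSs within 1 kb of a region they were 17 and 16. The DOWN share stands beside 8.91% over all symbols and the UP share beside 21.4%. Among symbols whose widest TSS region reached 1350 bp, the shares were 12.3% and 25.1%, though some of the pathway genes had narrower ones. The lists were chosen with earlier results of these data known, and the difference from other genes was not tested. The other pathway genes, too, had wide TSS regions, with a median of 3367 bp for the widest per gene. Within 50 kb, 30 of the 60 (50%) had a DOWN region and 37 (61.7%) an UP region, beside 31.3% and 53.6% of the protein-coding genes with a TSS in a region.

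The tryptophan list, which holds enzymes of the kynurenine pathway after TDO2 and also Ido2, had genes in the DOWN class, while Tdo2 was UP at its TSS. Of 8 genes, 7 had a TSS region, which was DOWN for 5 genes and UP for 0. Over all symbols with a TSS region, the shares were 8.91% for DOWN and 21.4% for UP. The difference of so short a list from these shares was not tested. The DOWN genes were Afmid (8980 bp), which acts right after TDO2 and shares its region with Tk1, Kmo (4588 bp), the kynurenine hydroxylase, Acmsd (4970 and 3058 bp), which diverts the pathway away from NAD, Aadat (1037 bp), an aminotransferase, and Ido2 (10798 bp), which catalyzes the same reaction as TDO2. Haao (1610 bp) and Qprt (1630 bp) lay in unchanged regions, and Kynu had no region at a TSS. Within 50 kb, 5 of the 7 had a DOWN region and 1 had an UP region, beside 31.3% and 53.6% of the protein-coding genes.

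In the phenylalanine and tyrosine list, 4 of 7 genes (Qdpr, Pcbd1, Gch1 and Hgd) had only unchanged TSS regions. Of these, Hgd belongs with Tat and Hpd to the steps of tyrosine breakdown. Fah, the last enzyme of the route, lay in a DOWN region of 4020 bp. Gstz1, the isomerase before FAH, was UP in a region of 1811 bp that it shares with Pomt2 and unchanged in another of 4307 bp. Hgd, which stands between HPD and GSTZ1, was unchanged with 6536 bp. The steps of tyrosine breakdown from TAT to FAH therefore carried unchanged, unchanged, unchanged, UP and DOWN regions in that order, counting the changed region of Gstz1.

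The nitrogen handling list had UP regions at 7 and DOWN regions at 3 of its 12 genes with a TSS region, Gpt2 counting in both. Over all symbols with a TSS region, the shares were 21.4% for UP and 8.91% for DOWN, and the difference was not tested. Slc25a13, the mitochondrial aspartate and glutamate carrier that feeds aspartate to ASS1, lay in an UP region of 20277 bp. Aqp9, a channel for urea and glycerol, lay in one of 12721 bp shared with Gm32511. Both aspartate aminotransferases were UP, Got1 with 6278 bp and Got2 with 5320 bp, and so were the liver glutaminase Gls2 (1358 bp) and the ornithine aminotransferase Oat (529 bp). The alanine aminotransferases were DOWN, Gpt with 3595 bp and Gpt2 with 12407 bp, although a second TSS of Gpt2 lay in an UP region of 564 bp. Slc38a3, a glutamine transporter, was DOWN with 5927 bp. Slc25a15 (7841 bp), the ornithine carrier of the urea cycle, Glul (1599 bp) and Car5a (1689 bp) were unchanged, and Glud1 and Arg2 had no region at a TSS. The mitochondrial carriers on either side of the cycle thus differed in class, UP for Slc25a13 and unchanged for Slc25a15.

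In the remaining lists both classes occurred, to be read beside the shares of 8.91% DOWN and 21.4% UP over all symbols. Among 14 genes of serine, glycine, histidine and proline breakdown, 4 were DOWN, Sdsl (3242 bp), Shmt1 (3671 bp), Ftcd (2174 bp) and Prodh (2878 bp). Agxt, the peroxisomal alanine and glyoxylate aminotransferase, was UP in a region of 418 bp, and Amdhd1, of histidine breakdown, in one of 5531 bp shared with Ccdc38. Among 9 genes of sulfur amino acids, Bhmt (3155 bp) and Cdo1 (7129 bp) were DOWN, while Gnmt (3174 bp) and Ahcy (6807 bp, shared with Gm45609) were UP and 5 were unchanged. Among 14 genes of branched-chain amino acids and lysine, 10 were unchanged, Aass was DOWN (1744 bp) and Bckdha was UP in a region of 4563 bp shared with Exosc5. BCKDHA is a subunit of the branched-chain keto acid dehydrogenase, and AASS starts lysine breakdown. Sdsl, Prodh and Aass each had a further TSS in an unchanged region.

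**Figure D4:**
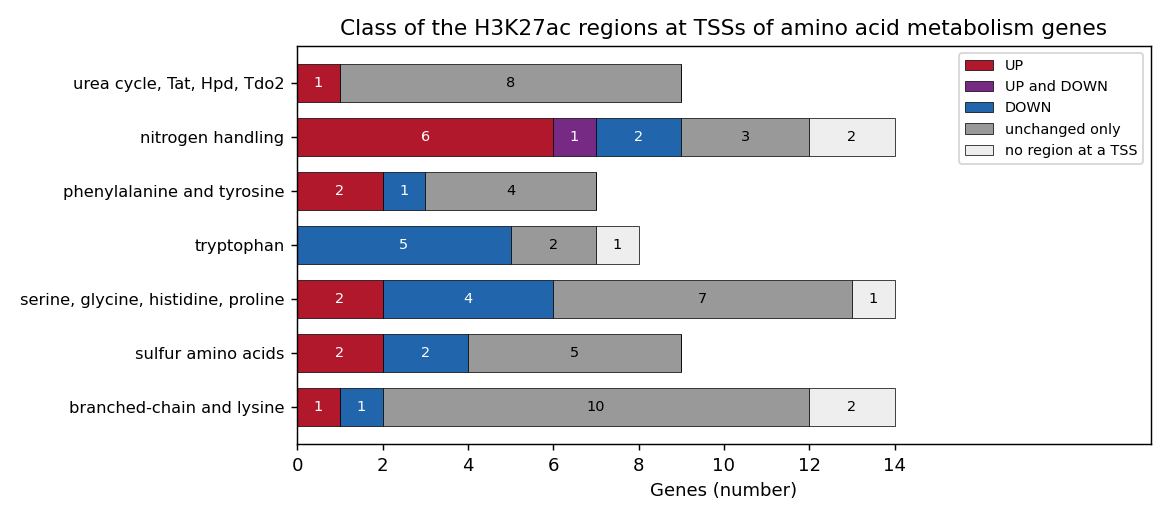
Number of genes (horizontal axis) by the class of the H3K27ac regions at their TSSs, for the 9 genes (top bar) and the 6 lists of other pathway genes. Red is UP, blue DOWN, purple both, grey unchanged only and pale grey no region; the tryptophan list has 5 blue and 0 red genes, and the nitrogen list 6 red, 1 purple and 2 blue genes.

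Motifs were searched on both strands as exact letters, HNF4 (CAAAGTCCA), C/EBP (TTNNGCAA), the D-box bound by PAR-bZIP factors (TTANNTAA), CRE (TGACGTCA), the ATF4/CHOP element (TGATGNAAT), FOXA (TGTTTAC), UPRE (TGACGTGG), paired glucocorticoid receptor half-sites (ACANNNTGT), the TATA box (TATAAA) and ERSE. In the 250 bases before the RefSeq start, 6 of the 9 genes had an entry in the promoter table, namely Otc, Ass1, Nags, Tat, Hpd and Tdo2, and only Tdo2 held any match. Its window had 1 TATA box and 1 glucocorticoid half-site pair, which 12.4% and 5.84% of all 32851 promoters hold. In the central 300 bases of the 18 changed regions, the ATF4/CHOP element was found in 3 of 12 UP regions (in Cps1, Lsm12 near Nags and Ctso near Tdo2) and in 0 of 6 DOWN regions. Over the whole lists, the same central windows held it in 4.07% of the UP, 1.48% of the DOWN and 1.55% of the unchanged list. HNF4 and FOXA matches occurred in 1 of the 6 DOWN regions each, both in the one upstream of Tdo2, and in 0 of the UP regions, with shares of 1.11% and 5.39% over all regions. Over the whole DOWN list the shares were 1.63% and 6.52%, and over the UP list 0.635% and 4.88%. The D-box was found in 2 UP regions, both at Tdo2, and in the DOWN region of Arg1 nearest to its start, and in 7.5% of all regions. C/EBP matches were found in 2 UP regions, near Nags and Tdo2, and in 13.2% of all regions. TATA boxes were found in 2 DOWN and 2 UP regions, and in 13.9% of all regions. CRE, UPRE, ERSE and the paired half-sites had no match in these 18 windows, and no matches overlapped each other. Over all regions, the central windows held these 4 in only 0.727%, 0.444%, 0.0373% and 9.02%, in that order. A match shows only that the letters are present in the window searched.

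The genes whose windows were most like those of the 9, by Bray-Curtis distance over the base pairs of DOWN, UP and unchanged regions within 50 kb (0 for identical windows), were found on all 9805 protein-coding genes with a TSS in a region, leaving out those within 1 Mb. They were Crem for Tat (0.00491), Hnrnpa0 for Otc (0.000663), Ppp1cb for Ass1 (0.0117), Dedd for Arg1 (0.0129), Iqsec1 for Asl (0.0214), Fgfr3 for Nags (0.0243), Gm45234 for Hpd (0.00602), 4930402H24Rik for Cps1 (0.0104) and Fam120a for Tdo2 (0.015). For Arg1, the window of Dedd held 4665 bp of DOWN and 6783 bp of unchanged regions, against 4423 and 6834 bp. For Tdo2, that of Fam120a held 4731 bp of DOWN, 5439 bp of UP and 7898 bp of unchanged regions, against 4863, 5408 and 8286 bp.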

How the data were processed

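H3K27ac was profiled by ChIP-seq in MPH after 4 h in 1 µM thapsigargin or in 0.04% DMSO (3 H3K27ac libraries and 1 input library each). Per the labels, Bowtie and MACS2 were used, without versions. The authors called broad peaks on pooled libraries and counted reads, extended to 200 bp, in bins of 150 bp. They filtered bins against input with a prior count of 5, normalized by loess, and applied csaw with experiment as a block. A peak's test combined the bins sharing 75 bp or more with it. The deposited values are the coordinates of regions, in bp of mm10.

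Starts were made 1-based. All 9 genes and 66 pathway genes were found in GENCODE M21, 1 of them (Mmut) through an older symbol. A region was at a TSS where any transcript starts in it, in a gene body where it shares a base with the gene, and near where its nearest base is within 50 kb of a TSS. The authors' assignment of distal regions was not repeated. Sequences came from GRCm38.p6 and from the RefSeq promoter table of this build; mm10 and GRCm38 share coordinates, and all regions lay within the 21 chromosomes. Promoter sequences of Cps1, Asl and Arg1 were not analysed here.

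The genes, pathway lists, markers and motifs were chosen with earlier results of these data known. The named genes were the 9, the other pathway genes with a TSS in an UP or DOWN region (1 of them is counted but not reported here by name), the gene most like each, and neighbours whose TSS lies in a nearby region. Names of unchanged pathway genes, the genes that hold a changed region without a TSS in it, and the 3 printed region centres were added after their values were seen. Counts and widths are descriptions without a test. The counting and motif functions were tested on simulated data. Python 3.11.15, numpy 2.4.6 and matplotlib 3.10.9 were used.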

Additional observations from a re-analysis of the deposited data

How the results depend on the processing

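Of 44 alternative settings over 10 counts and shares, 41 left the count within 1.5 times its reported value, or the share within its 95% Wilson interval with regions as units. These settings were TSSs within 1 kb of a region, protein-coding or GENCODE basic transcripts, regions of at least 500 bp, 50% of a region in the gene body, bodies extended by 2 kb, windows of 25 and 100 kb, region midpoints, and regions at TSSs of other genes left out. The Wilson interval treats regions as equal and independent, while a share of base pairs weights them by width, so it is only a rough band. An UP share of 16.4%, with regions at TSSs of other genes left out, still fell inside it. With 25 kb, the UP regions near the 9 genes fell from 11 to 7 and their share of base pairs from 23.7% to 13.7%, since the UP regions at Vkorc1l1, Setd1b, G6pc3 and in Crcp lie further out. When 500 bp of both flanks of a TSS had to lie in the region, the genes in an UP region fell from 1 to 0, since the region at Tdo2 reaches 307 bp upstream. The count of 0 genes in DOWN regions held in all 5 settings tried. Only TSSs within 1 kb of a region could have raised it, since the other settings narrow the transcripts or regions. For DOWN regions in gene bodies, only the extension by 2 kb could have raised the count of 0. Settings that could only keep a count of 0 are among the 41.

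No paired analysis was possible because the lists hold 1 set of regions for all libraries, with no value per library. For the same reason no library was left out, the spread between experiments and the depth are unknown, and the authors' filters were not checked. Assignment by distance does not show which gene a distal region acts on, and regions past the FDR with mixed bins are in no list.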
